A study of Mus musculus with 10 samples.

Results

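Transcripts of glycolysis and of the pentose phosphate pathway were followed enzyme by enzyme in RNA sequencing of mouse peritoneal macrophages. The set held 38 genes, 22 of glycolysis (from glucose uptake to lactate export) and 16 of the pentose phosphate pathway, its side reactions and phosphoribosyl pyrophosphate (PRPP) synthesis. They were taken by name from a table of 54532 genes, in which each had 1 row, and 37 of them had a mean of at least 10 normalized counts and were tested. Eno2 was below that mean.

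The libraries formed 3 groups: aged mice labelled Trem1-/- (n = 3 libraries, replicates 1, 2 and 3), aged wild-type mice (aged WT, n = 3, replicates 3, 4 and 6) and young wild-type mice (young WT, n = 4, replicates A, B, C and E). Trem1 encodes an activating receptor of myeloid cells that amplifies inflammatory signals. The labels give no young Trem1-/- group and no age in months, sex, batch or cell sorting step, and they do not say whether the mouse lacks the gene in all cells. Separate mice per library are not stated, so each p-value reflects variation among these libraries, some of which may be technical. The study asks how the macrophage transcriptome differs with age and with the labelled deletion in aged animals.

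Glycolysis splits glucose into pyruvate, with a net gain of ATP and NADH, and lactate dehydrogenase then returns NAD so that the pathway can run on. The pentose phosphate pathway branches off at glucose-6-phosphate: its oxidative arm makes NADPH, which phagocytes use for the oxidative burst and for glutathione reduction, and its non-oxidative arm interconverts sugars between ribose-5-phosphate and the glycolytic intermediates. Activated macrophages are known for high glucose uptake and lactate release, and many glycolytic genes are known targets of the hypoxia-inducible factor HIF-1.

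Values are normalized read counts, that is, reads scaled by the authors with 1 factor per library. Differences are given as log2 fold changes ± standard error (SE). A gene was called when its limma adjusted p (Benjamini-Hochberg over all 11506 genes tested) was under 0.05. Libraries held 2663744 to 5603498 reads, and 3 reads corresponded to 1.85 to 3.84 normalized counts. Trem1 itself was read in every library. Those labelled Trem1-/- had 23.5, 106 and 13.8 normalized counts (replicates 1, 2 and 3), aged WT 15.3 to 64.0 and young WT 8.005 to 24.4. Trem1-/- replicate 2 had the highest count of all 10 libraries. A count over the whole gene cannot check a partial deletion, so the genotype is used as labelled. Aged WT libraries stood apart in composition. The nuclear RNA Gm26917 took 4.999% to 5.68% of reads in libraries labelled Trem1-/-, 8.38% to 12.9% in aged WT and 5.06% to 5.70% in young WT, and mitochondrially encoded transcripts took 1.26% to 2.39%, 3.17% to 5.26% and 1.19% to 2.13% in the same order.

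The marker genes of macrophages and of other cells also moved with the groups. The 12 macrophage markers, such as Adgre1 and Csf1r, were all read, and they summed to 64691 to 84754 normalized counts in libraries labelled Trem1-/-, 25143 to 40152 in aged WT and 75967 to 82719 in young WT. Between aged and young WT 9 of the 12 fell, where 19.0% of all genes tested were called lower. In the labelled Trem1-/- libraries 8 of the 12 were higher than in aged WT, where 11.5% of all genes were called higher. The 12 B cell markers summed to 6585 to 13804, 14460 to 23465 and 2602 to 5786 in these groups. In aged against young WT 11 of them rose, beside 14.3% of all genes. In the labelled Trem1-/- libraries 3 of them were lower than in aged WT, beside 6.82% of all genes. The 14 T and NK cell markers summed to 470.0 to 533, 752 to 1208 and 152 to 293. Of the 10 of them tested, 9 rose with age and 8 were lower in the labelled Trem1-/- libraries than in aged WT. The 7 erythroid markers summed to 17.2 to 58.5, 476 to 23863 and 9.30 to 760.2. Of the 6 of them tested, 5 rose with age and 5 were lower in the labelled Trem1-/- libraries than in aged WT. In these bulk samples, fewer cells of a type and less RNA per cell cannot be told apart. The part that these markers have in the results below was not tested.

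Between aged and young WT, the hexokinases Hk1, Hk2 and Hk3 fell, as did Gapdh, Eno1 and Pkm of the later steps of glycolysis and G6pdx, Pgd, Tkt and Taldo1 of the pentose phosphate pathway. The glucose transporter Slc2a1 and the PRPP synthetase Prps2 rose. The 3 hexokinases, Gapdh, Eno1, Pkm, G6pdx and Pgd were called higher in libraries labelled Trem1-/- than in aged WT. Of these calls only those of Hk1 and Pkm held when any 1 library was left out. Aldoa was also called higher there, and Pfkfb4 and Prps2 lower, each lost without at least 1 library. H6pd, the glucose-6-phosphate dehydrogenase of the endoplasmic reticulum, was called higher in the labelled Trem1-/- libraries than in either wild-type group. Its call against aged WT held without any 1 library. Its call against young WT was lost without Trem1-/- replicate 1 or 3 or young WT replicate A or E. The plot of all members by library shows these blocks.

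**Figure D1:**
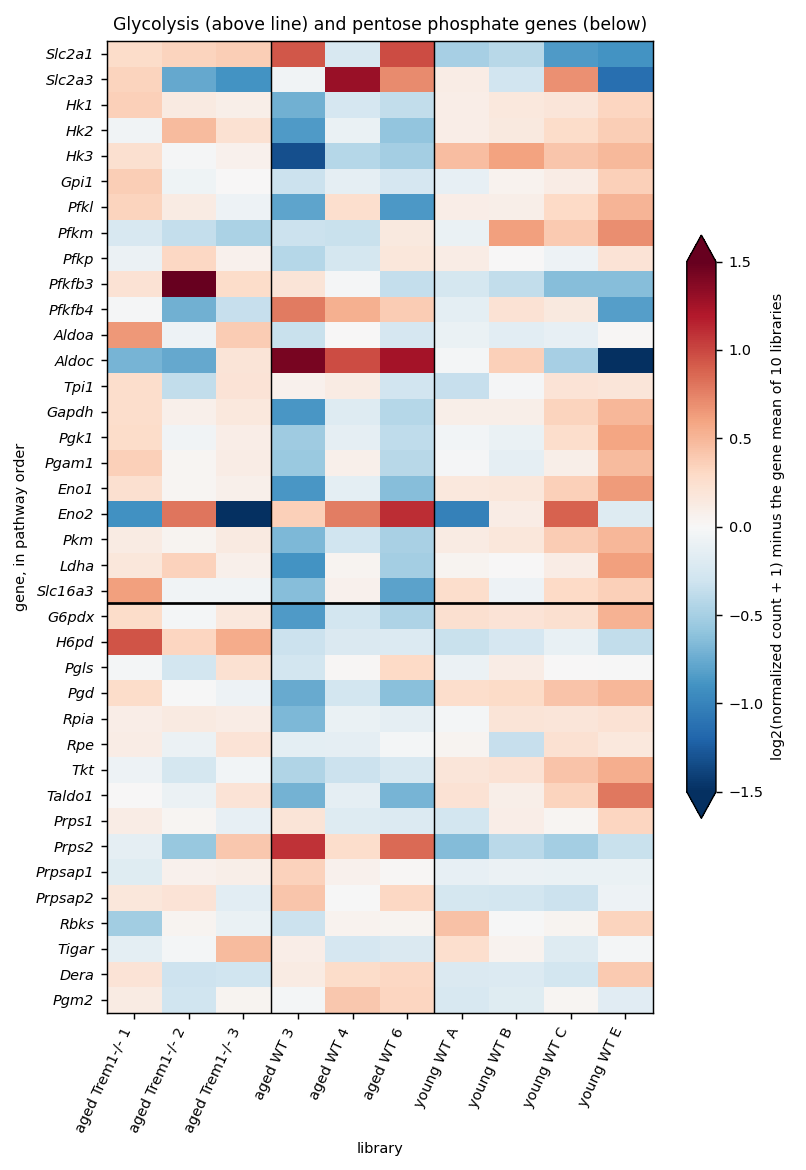
Each row is 1 of the 38 genes in pathway order, glycolysis above the thick line, and each column 1 of the 10 libraries, with those labelled aged Trem1-/- on the left, aged WT in the middle and young WT on the right. Colour gives log2(normalized count + 1) minus the gene's mean over the 10 libraries, with values beyond 1.5 in either direction drawn at the end colour, and the aged WT columns are blue for Hk3, Gapdh, Eno1, Pkm, G6pdx and Pgd and red for Aldoc and Prps2.

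Between aged and young WT, 13 of the 21 glycolysis genes tested were called, 3 higher and 10 lower, where 33.3% of all genes tested were called (14.3% higher and 19.0% lower). Their median log2 fold change was -0.53, beside -0.02 for all genes tested. Of the 16 pentose phosphate genes, 2 were called higher and 5 lower, with a median of -0.12. The libraries of both groups did not overlap for 19 of the 37 members, beside 40.3% of all genes tested. The authors' deposited table, a DESeq2 comparison of the same groups, calls 3 members higher and 12 lower at the same threshold, and all 15 were among the 20 called with limma. When any 1 library was left out, 12 of the 20 calls held, those of Slc2a1, Hk1, Hk2, Hk3, Gapdh, Eno1, Pkm, G6pdx, Pgd, Tkt, Taldo1 and Prps2.

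In the comparison of the libraries labelled aged Trem1-/- with aged WT, 7 glycolysis genes were called higher and 1 lower, and 3 pentose phosphate genes were called higher and 1 lower. That is 12 of 37 members, where 18.4% of all genes tested were called (11.5% higher and 6.82% lower). The median log2 fold change was 0.51 over the glycolysis genes and 0.12 over the pentose phosphate genes, beside 0.02 over all genes tested. The libraries did not overlap for 17 of the 37 members, beside 34.9% of all genes. When any 1 library was left out, 3 of the 12 calls held, those of Hk1, Pkm and H6pd. Scaling each library to its total reads (CPM) in place of the authors' factors gave 971 higher and 1048 lower calls over all genes, against 1327 and 785, and called 11 members, all among the 12.

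Set against young WT, the libraries labelled aged Trem1-/- differed in 1 of the 37 members, H6pd, where 0.921% of all genes tested were called (0.591% higher). None of the 21 glycolysis genes passed with limma, 4 of them had an unadjusted p under 0.05, and DESeq2 on recovered reads called 2. Over all genes, CPM gave 50 higher and 49 lower calls in place of 68 and 38. The libraries did not overlap for 6 of the 37 members, 3 higher and 3 lower, beside 8.05% and 7.72% of all genes. The 3 comparisons share libraries in pairs, the aged WT libraries standing on opposite sides of the first and second, so opposite signs there are no independent evidence and each comparison is given by its own values.

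**Figure D2:**
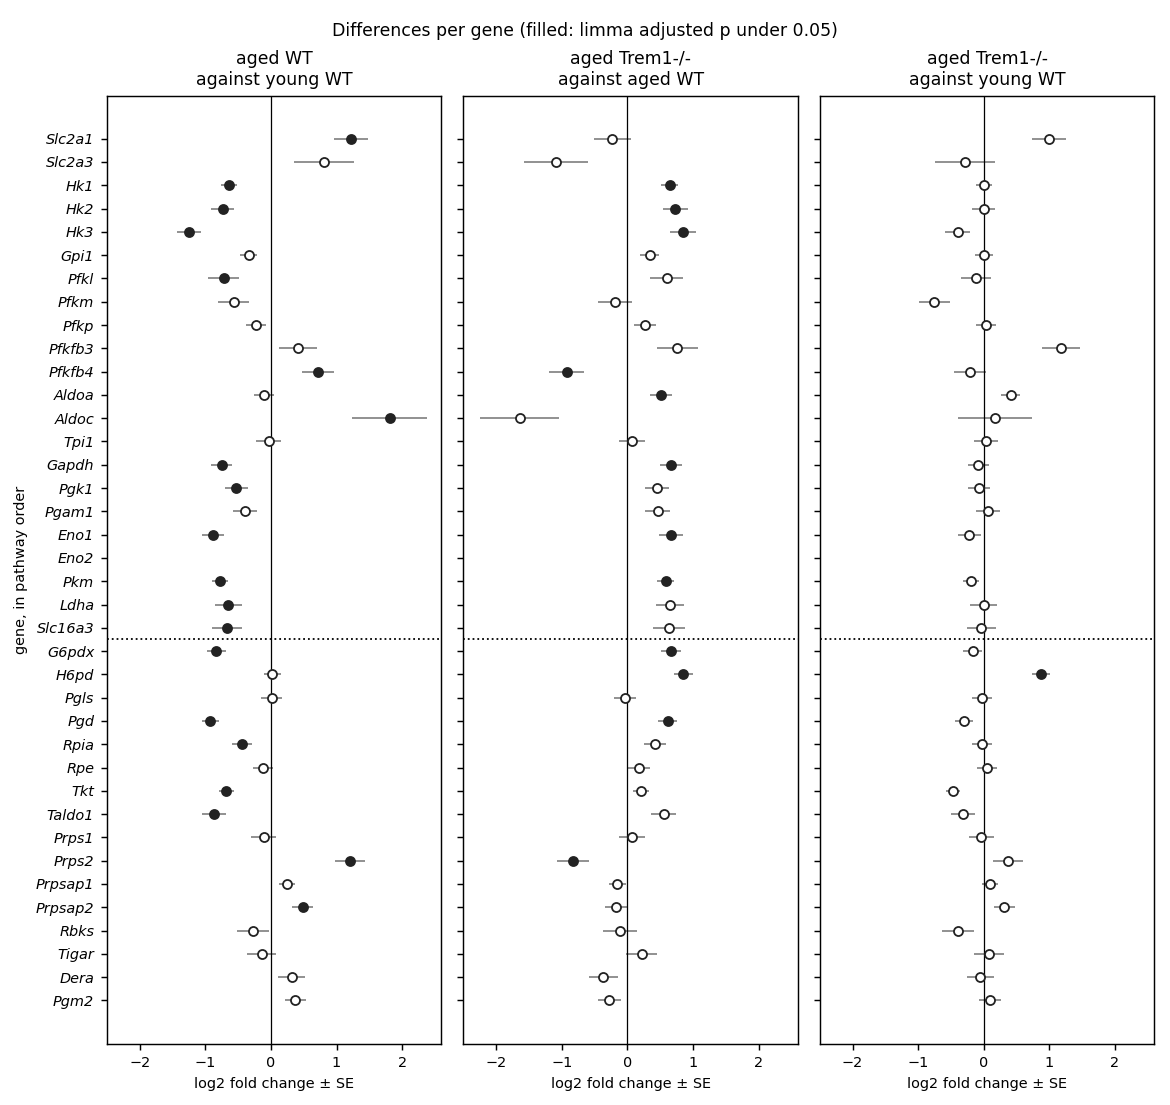
Each point is the log2 fold change of 1 gene, in pathway order from top to bottom, with its standard error as a bar, and filled points had a limma adjusted p under 0.05. The left panel compares aged WT with young WT, the middle one libraries labelled aged Trem1-/- with aged WT, and the right one libraries labelled aged Trem1-/- with young WT, where H6pd is the filled point. The dotted line parts glycolysis from the pentose phosphate pathway, and the row of Eno2 is empty because it was not tested.

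The stretch of DNA before a gene's start is where HIF-1 and other factors of these pathways are known to bind, so the RefSeq promoter windows (250 bases before to 50 after each annotated start, build GRCm38.p6) were read for 36 members; Slc2a3 and Dera had no window. The core of the hypoxia response element, ACGTG on either strand, occurred in 17 of 33 windows of glycolysis genes (51.5%) and in 2 of 17 windows of pentose phosphate genes (11.8%), against 19.6% of all 32851 promoter windows. The antioxidant response element TGACNNNGC on either strand occurred in 2 of 33 (6.06%) and 5 of 17 windows (29.4%), against 12.4% of all. The E-box CACGTG, each of which also holds ACGTG on both strands, occurred in 3 of the 33 glycolysis windows (9.09%), against 7.15% of all. The GC box GGGCGG on either strand occurred in 57.6% of glycolysis, 76.5% of pentose phosphate and 35.7% of all windows. These windows are rich in G and C, with a median of 61.0% for glycolysis genes, 60.7% for pentose phosphate genes and 52.7% for all windows. A match describes letters only and shows neither binding nor a cause.

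The window of Slc2a1 at chr4:119108495-119108794 (plus strand) is shown because this gene rose with age and holds 1 hypoxia core. That of Ldha at chr7:46845554-46845853 (plus strand, 4329 bases inside the GENCODE gene start) has the most matches of all members, 5, of which 4 lie in its pair of E-boxes. Pgk1 at chrX:106186850-106187149 (plus strand) is shown as a gene with 2 hypoxia cores that fell. G6pdx at chrX:74428831-74429130 (minus strand), the entry enzyme of the pentose phosphate pathway, holds an antioxidant element and a hypoxia core, and Prps2 at chrX:167382700-167382999 (minus strand) rose with age and holds none of the motifs searched. Each is written in the direction of the gene, and capitals mark matches to ACGTG or TGACNNNGC on either strand.
Slc2a1: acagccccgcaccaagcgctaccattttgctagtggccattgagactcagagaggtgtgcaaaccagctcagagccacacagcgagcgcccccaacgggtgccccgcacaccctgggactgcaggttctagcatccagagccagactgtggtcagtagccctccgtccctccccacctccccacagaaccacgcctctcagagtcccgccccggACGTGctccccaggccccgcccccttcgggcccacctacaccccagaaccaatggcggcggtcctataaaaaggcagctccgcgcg
Ldha: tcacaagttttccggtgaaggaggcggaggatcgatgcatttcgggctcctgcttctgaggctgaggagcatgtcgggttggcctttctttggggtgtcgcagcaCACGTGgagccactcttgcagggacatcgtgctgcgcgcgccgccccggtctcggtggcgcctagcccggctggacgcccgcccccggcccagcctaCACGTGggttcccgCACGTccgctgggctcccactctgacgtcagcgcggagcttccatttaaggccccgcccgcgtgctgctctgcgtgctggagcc
Pgk1: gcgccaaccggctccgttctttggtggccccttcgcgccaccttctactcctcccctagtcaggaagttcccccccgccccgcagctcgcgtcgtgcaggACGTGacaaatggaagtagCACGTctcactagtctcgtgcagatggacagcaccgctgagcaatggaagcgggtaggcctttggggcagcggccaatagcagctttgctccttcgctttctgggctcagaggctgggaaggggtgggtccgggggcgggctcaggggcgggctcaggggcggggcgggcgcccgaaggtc
G6pdx: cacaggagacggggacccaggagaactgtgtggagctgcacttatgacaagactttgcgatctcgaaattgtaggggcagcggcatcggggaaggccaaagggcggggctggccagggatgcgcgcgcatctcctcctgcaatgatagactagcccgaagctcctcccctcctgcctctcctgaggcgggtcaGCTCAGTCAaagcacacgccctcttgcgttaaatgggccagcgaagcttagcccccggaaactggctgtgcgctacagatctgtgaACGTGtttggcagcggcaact
Prps2: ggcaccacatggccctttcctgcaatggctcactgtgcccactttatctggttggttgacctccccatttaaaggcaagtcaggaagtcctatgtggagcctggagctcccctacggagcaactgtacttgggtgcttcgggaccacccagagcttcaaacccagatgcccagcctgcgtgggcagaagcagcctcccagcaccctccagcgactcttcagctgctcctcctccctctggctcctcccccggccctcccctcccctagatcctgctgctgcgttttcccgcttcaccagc

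Counted in the window nearest the gene start, 11 glycolysis genes held ACGTG and 10 did not. Pfkm, Pfkfb3, Aldoc and Ldha of the 11 and Hk1, Aldoa, Eno1 and Pkm of the 10 have further windows. Those were not used in this split, which depends on the window chosen. Of the 11, 2 rose (Slc2a1 and Aldoc) and 6 fell (Hk2, Hk3, Gapdh, Pgk1, Ldha and Slc16a3) between aged and young WT. Of the 10, which include the untested Eno2, 1 rose (Pfkfb4) and 4 fell (Hk1, Pfkl, Eno1 and Pkm). Genes with this core lay among those that rose and those that fell, as did genes without it. Over all genes tested, 14.3% were called higher and 19.0% lower. The calls of Aldoc, Pgk1, Ldha, Slc16a3, Pfkfb4 and Pfkl were each lost without at least 1 library.

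Glucose enters the macrophage mainly through GLUT1, encoded by Slc2a1. Slc2a1 had 132, 137 and 141 normalized counts in libraries labelled aged Trem1-/-, 209, 91.7 and 216 in aged WT and 76.7, 81.3, 60.05 and 58.1 in young WT. All aged libraries of either genotype lay above all young ones, and aged WT replicate 4 lay nearest to the young group. Slc2a1 rose by 1.22 ± 0.26 on the log2 scale in aged against young WT (limma adjusted p = 0.00427). The labelled Trem1-/- libraries differed from young WT by 0.99 ± 0.26, which missed the threshold (adjusted p = 0.0966) and passed it without aged WT replicate 4 (adjusted p = 0.0112) and with DESeq2 on recovered reads (adjusted p = 0.0195). Against aged WT the difference was -0.23 ± 0.28, and without aged WT replicate 4 it was -0.63 and was called lower (adjusted p = 0.0203). Slc2a3, which encodes the high-affinity transporter GLUT3, was read at 13.8 to 33.7, 25.6 to 66.6 and 11.6 to 43.2 normalized counts in these groups, which overlapped, and it passed no comparison.

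Hexokinases trap glucose in the cell as glucose-6-phosphate, and all 3 forms measured fell with age. Hk3, the form typical of myeloid cells, had 218, 181 and 192 normalized counts in libraries labelled aged Trem1-/-, 73.0, 136 and 128 in aged WT and 254, 280.2, 246 and 257 in young WT. The 3 groups did not overlap, with the labelled Trem1-/- libraries between the wild-type groups. Hk3 fell by 1.25 ± 0.19 in aged against young WT (limma adjusted p = 0.000708), the largest fall among the members. It was higher by 0.85 ± 0.20 in the labelled Trem1-/- libraries than in aged WT (adjusted p = 0.0155), a call lost without Trem1-/- replicate 1 (adjusted p = 0.0554), and its difference from young WT was -0.40 ± 0.19 and did not pass.

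Hk1, the form found in most tissues, had 727, 625 and 606 normalized counts in libraries labelled aged Trem1-/-, 343, 476 and 438 in aged WT and 607, 631, 646 and 710.1 in young WT. The aged WT libraries were the 3 lowest, and the other groups overlapped. It fell by 0.64 ± 0.12 with age (adjusted p = 0.00248), was higher by 0.65 ± 0.13 in the labelled Trem1-/- libraries than in aged WT (adjusted p = 0.00826), and stood at 0.01 ± 0.12 against young WT (95% confidence interval -0.26 to 0.28). Hk2, the inducible form, had 177, 256 and 216 normalized counts, against 101, 171 and 121 in aged WT and 196, 203, 222 and 237 in young WT. It fell by 0.74 ± 0.18 with age (adjusted p = 0.00877). Hk2 was higher by 0.73 ± 0.19 in the labelled Trem1-/- libraries (adjusted p = 0.0231), a call lost without Trem1-/- replicate 2 or 3 or aged WT replicate 3 or 6 (adjusted p up to 0.085).

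Levels of different genes were set side by side per kb of merged exon, and levels and shares depend on this choice of length. The merged exons of Hk1 span 8532 bases and its longest transcript 4278, against 5969 and 5513 for Hk2 and 3682 and 3219 for Hk3. The 3 hexokinases summed to 166 ± 7.46 normalized counts per kb in libraries labelled aged Trem1-/-, 102 ± 22.7 in aged WT and 182 ± 8.18 in young WT (SD, n = 3, 3 and 4). Hk3 made up 32.1 ± 2.16% of that sum, 29.7 ± 3.57% in aged WT and 38.7 ± 2.38% in young WT. Hk1 made up 46.0 ± 2.63%, 48.8 ± 3.21% and 41.7 ± 1.29% in the same order. All aged libraries of either genotype had a lower share of Hk3 and a higher share of Hk1 than all young ones. Each of these 4 comparisons with young WT gave the smallest p that the exact two-sided permutation test allows for 3 against 4 libraries, p = 0.0571, and an adjusted p of 0.21 over the 33 shares compared, so none could pass.

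Gpi1, which interconverts glucose-6-phosphate and fructose-6-phosphate, passed no comparison with all libraries and stood at -0.34 ± 0.13 in aged against young WT (adjusted p = 0.0704, and 0.0434 without young WT replicate A). Phosphofructokinase is the committed step of glycolysis, and its liver form Pfkl made up 78.1 ± 2.98% of the step's level per length in libraries labelled aged Trem1-/-, 71.3 ± 10.6% in aged WT and 76.6 ± 1.92% in young WT. Pfkl had 663, 574 and 499 normalized counts in libraries labelled aged Trem1-/-, 303, 623 and 289 in aged WT and 564, 559.7, 647 and 748 in young WT. Aged WT replicate 4 lay within the young range and the other 2 aged WT libraries far below it. Pfkl fell by 0.72 ± 0.23 with age (adjusted p = 0.0342), a call lost without aged WT replicate 3 or 6 or young WT replicate C or E (adjusted p up to 0.148). The edgeR test on recovered reads did not call it either (adjusted p = 0.076). Without aged WT replicate 4 it was called higher in the labelled Trem1-/- libraries than in aged WT (adjusted p = 0.00126), where all libraries together gave 0.60 ± 0.25 (adjusted p = 0.117). Pfkm and Pfkp, the muscle and platelet forms, passed no comparison with all libraries, and Pfkm, at 20.6 to 24.5, 22.9 to 32.3 and 27.0 to 47.7 normalized counts in the 3 groups, stood at -0.76 ± 0.24 between the labelled Trem1-/- libraries and young WT (adjusted p = 0.162).

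The bifunctional enzymes PFKFB3 and PFKFB4 set the level of fructose-2,6-bisphosphate, the main activator of phosphofructokinase. Pfkfb3 had 311, 822 and 325 normalized counts in libraries labelled aged Trem1-/-, 306, 265 and 208 in aged WT and 222, 207, 172 and 172 in young WT. Trem1-/- replicate 2 stood far above all other libraries. In that library mesothelial and fibroblast markers summed to 523 normalized counts and mast cell markers to 1948, against 22.5 and 413 in replicate 1 and 125 and 429 in replicate 3. Aged WT replicate 6 and young WT replicate C had like sums, of 662 and 2211 and of 524 and 1374, with 208 and 172 normalized counts of Pfkfb3. The part of these cells in the Pfkfb3 counts was not tested. Pfkfb3 passed no comparison with limma, with 1.18 ± 0.29 for the labelled Trem1-/- libraries against young WT (adjusted p = 0.0767), a difference that DESeq2 called (adjusted p = 0.00162) and that was 0.72 without Trem1-/- replicate 2. Against aged WT it stood at 0.76 ± 0.31, which DESeq2 also called (adjusted p = 0.0427), and at 0.31 without that library.

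Pfkfb4 had 87.9, 53.7 and 70.0 normalized counts in libraries labelled aged Trem1-/-, 154, 129.9 and 116 in aged WT and 80.2, 104, 98.5 and 49.97 in young WT. The aged WT libraries were the 3 highest. It rose by 0.72 ± 0.25 with age (adjusted p = 0.0445), a call lost without Trem1-/- replicate 3, any aged WT library or young WT replicate A or E (adjusted p up to 0.148). It was lower by 0.93 ± 0.27 in the labelled Trem1-/- libraries than in aged WT (log2 fold change -0.93, adjusted p = 0.0333), a call lost without Trem1-/- replicate 2 or 3, aged WT replicate 3 or 6 or young WT replicate A (adjusted p up to 0.117). Pfkfb4 made up 21.6 ± 11.1% of the level per length of both PFKFB genes in the labelled Trem1-/- libraries, 44.4 ± 1.66% in aged WT and 39.5 ± 7.31% in young WT. The share did not overlap between the labelled Trem1-/- libraries and aged WT, where the exact permutation test of 3 against 3 libraries cannot go below its value of p = 0.1.

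**Figure D3:**
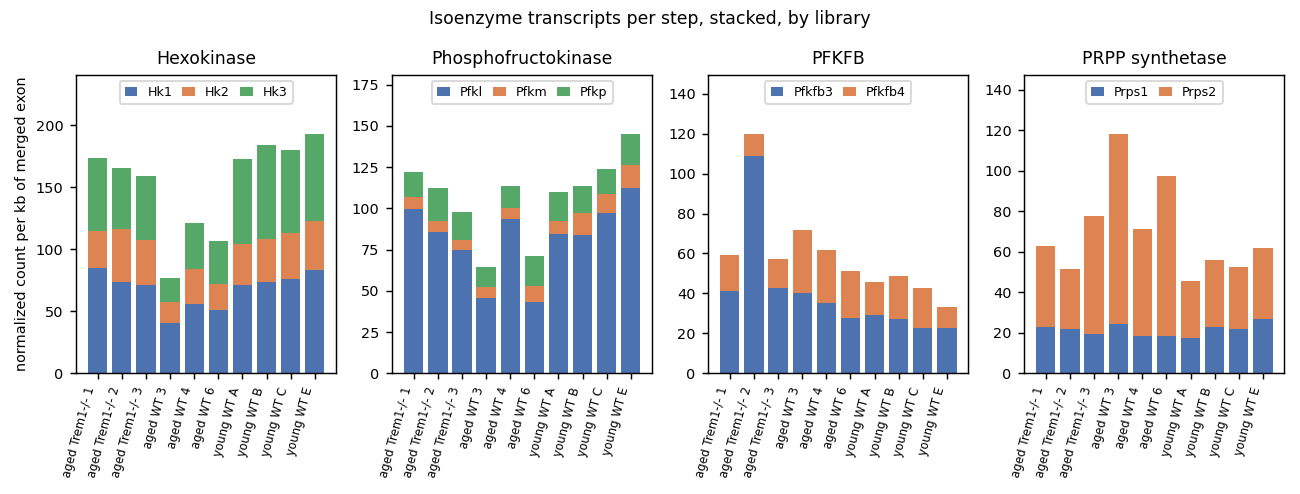
Stacked bars give the normalized count per kb of merged exon of each isoenzyme in the 10 libraries, labelled aged Trem1-/- on the left, aged WT in the middle and young WT on the right, for hexokinase, phosphofructokinase, the PFKFB enzymes and PRPP synthetase. Hexokinase bars are lowest in aged WT, Pfkfb3 dominates the PFKFB bar of Trem1-/- replicate 2, and Prps2 is the taller part of the PRPP synthetase bars in aged WT, at 73.9% to 81.1% of them.

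Aldolase cleaves fructose-1,6-bisphosphate into triose phosphates. Aldoa, the form of most cells, had 1799, 1087 and 1490.1 normalized counts in libraries labelled aged Trem1-/-, 913, 1148 and 962 in aged WT and 1070.2, 1030.2, 1052 and 1162 in young WT. It was higher by 0.51 ± 0.16 in the labelled Trem1-/- libraries than in aged WT although the groups overlapped. Its limma adjusted p of 0.0489 lay just under the threshold. The call was lost without 8 of the 10 libraries, all but Trem1-/- replicate 2 and aged WT replicate 4 (adjusted p up to 0.167). It was also lost with edgeR, TMM scaling and CPM (adjusted p = 0.0574, 0.0642 and 0.109), while DESeq2 made it (adjusted p = 0.0309). With age Aldoa stood at -0.10 ± 0.15.

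Aldoc, best known from brain, was low, resting on 5 to 9 reads a library in those labelled Trem1-/-, 17 to 25 in aged WT and 1 to 19 in young WT. It had 5.11, 4.81 and 10.3 normalized counts in libraries labelled aged Trem1-/-, 25.6, 18.6 and 22.5 in aged WT and 8.72, 11.7, 6.005 and 1.16 in young WT. It rose by 1.81 ± 0.57 with age (adjusted p = 0.0293), a call lost without aged WT replicate 3 or 6 or young WT replicate C (adjusted p up to 0.0925). Its difference between the labelled Trem1-/- libraries and aged WT, -1.64 ± 0.61, missed the limma threshold (adjusted p = 0.0806) and passed that of edgeR (adjusted p = 0.0385) and DESeq2 (adjusted p = 0.0189). It held 0.42 ± 0.18% of the aldolase level per length in the labelled Trem1-/- libraries, 1.97 ± 0.51% in aged WT and 0.58 ± 0.39% in young WT. Tpi1, which interconverts the triose phosphates, had 143 to 224, 152 to 202 and 146 to 214 normalized counts in the 3 groups, and its difference with age was -0.04 ± 0.19 (95% confidence interval -0.45 to 0.37).

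The payoff phase of glycolysis begins with Gapdh, which makes NADH. Gapdh had 2841, 2482 and 2641 normalized counts in libraries labelled aged Trem1-/-, 1291, 2065 and 1751 in aged WT and 2507, 2511, 2973 and 3342 in young WT. The aged WT libraries were the 3 lowest. Gapdh, often used to normalize other transcripts, fell by 0.75 ± 0.16 with age (adjusted p = 0.00397) and was higher by 0.66 ± 0.17 in the labelled Trem1-/- libraries than in aged WT (adjusted p = 0.0207), a call lost without Trem1-/- replicate 1 or aged WT replicate 3 (adjusted p up to 0.0675). Per kb of merged exon it was the most abundant member in all 3 groups, at 642 ± 43.6, 412 ± 94.1 and 686 ± 97.7 normalized counts. This rank depends on the length used. Without length scaling Eno1 averaged more, at 2861, 1843 and 3354 normalized counts, against 2655, 1702 and 2833 for Gapdh. The merged exons of Eno1 span 5379 bases and its longest transcript 2027, against 4133 and 3289 for Gapdh.

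Pgk1, the first ATP-making enzyme of the pathway, had 202 to 255, 145 to 192 and 196 to 318 normalized counts in the 3 groups. It fell by 0.53 ± 0.17 with age (adjusted p = 0.0359), a call lost without aged WT replicate 3 or 6 or young WT replicate C or E (adjusted p up to 0.13) and with CPM (adjusted p = 0.0553). Pgam1, the next enzyme, passed no comparison with all libraries (-0.40 ± 0.18 with age and 0.46 ± 0.19 between the labelled Trem1-/- libraries and aged WT). Both differences passed without aged WT replicate 4, with adjusted p = 0.021 and 0.0248. Sequence shared with other annotated genes covers 53.9% of the 50-base words in Pgk1 exons, 36.2% in Pgam1, 26.0% in Eno1, 25.8% in Pkm and 25.1% in Gapdh, so their counts can be split with these copies.

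Eno1, which makes phosphoenolpyruvate, had 3121, 2687 and 2775 normalized counts in libraries labelled aged Trem1-/-, 1437, 2391 and 1701 in aged WT and 2950.1, 2984, 3377 and 4105 in young WT. It fell by 0.88 ± 0.17 with age (adjusted p = 0.00241). It was higher by 0.66 ± 0.18 in the labelled Trem1-/- libraries than in aged WT (adjusted p = 0.0272), a call lost without any 1 of the 3 Trem1-/- libraries or aged WT replicate 3 or 6 (adjusted p up to 0.095). Eno2, the form of neurons, was listed at 0 to 5.61, 3.84 to 7.19 and 0.872 to 6.005 normalized counts in the 3 groups, close to the level of 3 reads.

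Pkm, the pyruvate kinase gene of macrophages, had 1705, 1612 and 1725 normalized counts in libraries labelled aged Trem1-/-, 984, 1279 and 1118 in aged WT and 1704, 1769, 2038 and 2224 in young WT. The aged WT libraries were the 3 lowest and lay apart from both other groups. Pkm fell by 0.78 ± 0.12 with age (adjusted p = 0.000785) and was higher by 0.58 ± 0.13 in the labelled Trem1-/- libraries than in aged WT (adjusted p = 0.0113). Both calls held without any 1 library. Against young WT the labelled Trem1-/- libraries stood at -0.19 ± 0.12 (95% confidence interval -0.46 to 0.07).

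Lactate dehydrogenase A, which turns pyruvate into lactate, had 1116, 1263 and 1047 normalized counts of Ldha in libraries labelled aged Trem1-/-, 534, 1020.3 and 699 in aged WT and 1025, 1002, 1075 and 1526 in young WT. Aged WT replicate 4 lay within the young range. Ldha fell by 0.65 ± 0.20 with age (adjusted p = 0.0293), a call lost without aged WT replicate 3 or 6 or young WT replicate E (adjusted p up to 0.128). Its difference between the labelled Trem1-/- libraries and aged WT was 0.65 ± 0.22 (adjusted p = 0.059), which passed without aged WT replicate 4 (adjusted p = 0.00522) or young WT replicate E. Slc16a3, the lactate exporter MCT4, had 194, 122 and 122 normalized counts in libraries labelled aged Trem1-/-, 80.6, 132 and 71.9 in aged WT and 152, 119, 155 and 162 in young WT. It fell by 0.67 ± 0.23 with age (adjusted p = 0.0409), a call lost without aged WT replicate 3 or 6 or young WT replicate A, C or E (adjusted p up to 0.165) and with edgeR, DESeq2 and CPM (adjusted p = 0.0718, 0.058 and 0.0563). Between the labelled Trem1-/- libraries and aged WT it was called only without aged WT replicate 4 (adjusted p = 0.0119), against 0.0916 with all libraries.

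Aged WT replicate 4 decided several of these calls. The 7 erythroid markers, chiefly haemoglobin genes, summed to 23863 normalized counts there, against 476 and 538 in the other aged WT libraries. Macrophage markers summed to 40152 there, against 25143 and 32713, B cell markers to 14460, against 23465 and 21318, and T and NK cell markers to 752, against 1208 and 978. The part of these differences in the calls was not tested. Without it, 11 glycolysis genes were called higher in the labelled Trem1-/- libraries than in aged WT, in place of 7.

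The oxidative arm of the pentose phosphate pathway starts with glucose-6-phosphate dehydrogenase. G6pdx, its cytosolic form, had 548, 441 and 504 normalized counts in libraries labelled aged Trem1-/-, 249.6, 373 and 327 in aged WT and 535, 519.7, 534 and 649 in young WT. The aged WT libraries were the 3 lowest. G6pdx fell by 0.83 ± 0.14 with age (adjusted p = 0.00134). It was higher by 0.66 ± 0.15 in the labelled Trem1-/- libraries than in aged WT (adjusted p = 0.014), a call lost without Trem1-/- replicate 1 (adjusted p = 0.0523). Exons of Ikbkg on the other strand overlap 13.6% of its exon bases, and whether reads were counted by strand is not given in the sources used here.

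H6pd encodes the enzyme of the endoplasmic reticulum that carries out the first steps of the oxidative arm there and supplies its NADPH. It had 820.4, 533 and 627 normalized counts in libraries labelled aged Trem1-/-, 343, 369 and 370.1 in aged WT and 338, 358, 396 and 330.1 in young WT. The labelled Trem1-/- libraries lay above all wild-type ones, and the wild-type groups overlapped. H6pd was higher by 0.85 ± 0.15 in the labelled Trem1-/- libraries than in aged WT (adjusted p = 0.00394), a call that held without any 1 library (adjusted p up to 0.0157). Against young WT it was higher by 0.87 ± 0.14 (adjusted p = 0.019), a call lost without Trem1-/- replicate 1 or 3 or young WT replicate A or E (adjusted p up to 0.0922). The wild-type groups differed by 0.02 ± 0.14 (95% confidence interval -0.28 to 0.32). Its exons share no 50-base word with another annotated gene. Per length, G6pdx and H6pd stood at 162 ± 17.3 and 126 ± 28.0 normalized counts per kb in the labelled Trem1-/- libraries, 103 ± 20.3 and 68.9 ± 2.92 in aged WT and 182 ± 19.4 and 67.9 ± 5.64 in young WT.

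**Figure D4:**
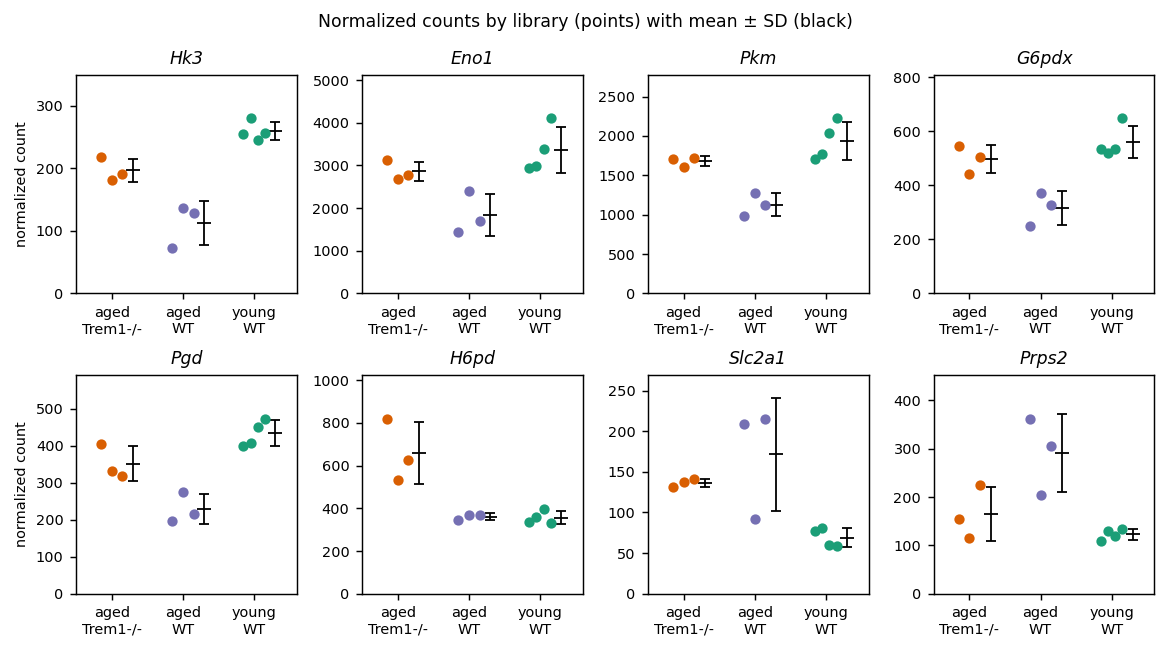
Points give the normalized counts of 8 genes by library, with the mean and SD in black beside each group, for libraries labelled aged Trem1-/- on the left, aged WT in the middle and young WT on the right. Hk3, Eno1, Pkm, G6pdx and Pgd are lowest in aged WT, H6pd is highest in the labelled Trem1-/- libraries at 533 to 820.4, Slc2a1 is lowest in young WT, and Prps2 averages most in aged WT.

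Pgd, which makes the second NADPH of the oxidative arm, had 405, 332 and 317 normalized counts in libraries labelled aged Trem1-/-, 197, 275 and 217 in aged WT and 400.0, 408, 452 and 473 in young WT. It fell by 0.92 ± 0.13 with age (adjusted p = 0.000596), the smallest adjusted p among the members. Pgd was higher by 0.62 ± 0.14 in the labelled Trem1-/- libraries than in aged WT (adjusted p = 0.0146), a call lost without Trem1-/- replicate 1 or aged WT replicate 3 or 6 (adjusted p up to 0.056). Pgls, the lactonase between both dehydrogenases, had 107 to 153, 108 to 159.9 and 122 to 141 normalized counts in the 3 groups and stood at 0.01 ± 0.16 with age (95% confidence interval -0.34 to 0.35). Exons of Fam129c overlap 20.6% of its own.

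In the non-oxidative arm the sugar phosphates are rearranged. Tkt, encoding transketolase, had 667, 583 and 684 normalized counts in libraries labelled aged Trem1-/-, 515, 562 and 594 in aged WT and 798, 817, 944 and 1027 in young WT. Both aged groups lay below all young libraries and overlapped each other. Tkt fell by 0.68 ± 0.11 with age (adjusted p = 0.00113). The labelled Trem1-/- libraries stood at 0.21 ± 0.12 against aged WT (95% confidence interval -0.05 to 0.48) and at -0.47 ± 0.11 against young WT, which missed the limma threshold (adjusted p = 0.0728) and passed that of DESeq2 (adjusted p = 0.00951).

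Taldo1, encoding transaldolase, had 704, 662 and 809.9 normalized counts in libraries labelled aged Trem1-/-, 429, 639 and 435 in aged WT and 818, 746, 885 and 1216 in young WT. It fell by 0.87 ± 0.18 with age (adjusted p = 0.00373). Between the labelled Trem1-/- libraries and aged WT it stood at 0.55 ± 0.19 (adjusted p = 0.0671) and passed without aged WT replicate 4 (adjusted p = 0.0119). Rpia, the ribose-5-phosphate isomerase, fell by 0.44 ± 0.15 with age (adjusted p = 0.0423), but the call was lost without 7 of the 10 libraries, all but aged WT replicates 4 and 6 and young WT replicate A (adjusted p up to 0.174), and with TMM scaling, CPM, edgeR and DESeq2. Rpe, the epimerase of this arm, passed no comparison.

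PRPP synthetases turn ribose-5-phosphate into the starting compound of nucleotide synthesis. Prps2 had 154, 115 and 225 normalized counts in libraries labelled aged Trem1-/-, 362, 204 and 306 in aged WT and 108, 129, 119 and 135 in young WT. All aged WT libraries lay above all young ones, and the labelled Trem1-/- libraries overlapped both groups. Prps2 rose by 1.205 ± 0.23 with age (adjusted p = 0.00232). It was lower in the labelled Trem1-/- libraries than in aged WT (log2 fold change -0.83 ± 0.25, adjusted p = 0.0369), a call lost without Trem1-/- replicate 1 or 2, aged WT replicate 3 or 6 or young WT replicate A, B or C (adjusted p up to 0.132).

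The sister gene Prps1 had 39.0 to 46.0, 36.8 to 48.6 and 34.9 to 53.5 normalized counts in the 3 groups and stood at -0.11 ± 0.19 with age (95% confidence interval -0.52 to 0.30). Prps2 made up 65.3 ± 8.72% of the level per length of both synthetases in the labelled Trem1-/- libraries, 78.1 ± 3.74% in aged WT and 58.9 ± 2.05% in young WT. Shares in aged and young WT did not overlap (exact permutation p = 0.0571, the smallest for 3 against 4 libraries, adjusted p = 0.21). Per kb of merged exon Prps2 ranked 19th, 10th and 21st of the 38 members in the 3 groups. Prpsap2, one of the regulatory partners of the synthetases, rose by 0.48 ± 0.16 with age (adjusted p = 0.0374), a call lost without aged WT replicate 3 or 6 or young WT replicate A, B or C (adjusted p up to 0.138), and 29.6% of its 50-base words occur in other genes. Its partner Prpsap1 stood at 0.24 ± 0.12 and did not pass.

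The genes that feed ribose into the pathway or hold glycolysis back passed no comparison. Rbks (ribokinase), Tigar (a fructose bisphosphatase under p53 control), Dera (deoxyribose-phosphate aldolase) and Pgm2 (a phosphopentomutase) had 14.3 to 79.7 normalized counts in single libraries. Their log2 fold changes with age were -0.28 ± 0.24, -0.14 ± 0.22, 0.31 ± 0.21 and 0.37 ± 0.16.

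Other genes of these pathways were taken from lists, which were chosen with earlier results of these data known. Of each list, up to 3 called genes with the largest absolute log2 fold change per comparison are named. Of 27 other genes of glycolysis and pyruvate handling tested (40 listed), 3 rose (11.1%) and 7 fell (25.9%) in aged against young WT, beside 14.3% and 19.0% of all genes tested. In the labelled Trem1-/- libraries 5 were higher (18.5%) and 1 lower (3.70%) than in aged WT, beside 11.5% and 6.82% of all genes. The same shares of all genes are the background for the lists that follow. Bsg, the chaperone that brings lactate transporters to the membrane, had 1434, 1325 and 1309 normalized counts in libraries labelled aged Trem1-/-, 571, 788 and 637 in aged WT and 1394, 1408, 1596 and 1634 in young WT. It fell by 1.19 ± 0.12 with age (adjusted p = 0.000126) and was higher by 1.04 ± 0.13 in the labelled Trem1-/- libraries (adjusted p = 0.00166), and both calls held without any 1 library. Ldhb, the lactate dehydrogenase of heart, fell by 1.18 ± 0.33 with age, a call lost without aged WT replicate 3 or young WT replicate B. Bpgm, known from red cells, was called higher with age, a call lost without young WT replicate A or E (adjusted p up to 0.0734). Its count was 596 in aged WT replicate 4, the library with the most haemoglobin, and 43.5 and 45.8 in the other 2 aged WT libraries. Pygl, a glycogen phosphorylase, was higher by 1.05 ± 0.18 in the labelled Trem1-/- libraries than in aged WT, and Eno3, the muscle enolase, was lower (log2 fold change -1.44 ± 0.32, lost without aged WT replicate 3).

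Of 8 other pentose phosphate and sugar genes tested, 4 fell with age (50%, beside 19.0% of all genes) and 2 were higher in the labelled Trem1-/- libraries than in aged WT (25%, beside 11.5%). Sord (sorbitol dehydrogenase) fell by 1.30 ± 0.27 and Khk (ketohexokinase) by 1.09 ± 0.18 with age, and both were higher in the labelled Trem1-/- libraries, by 1.29 ± 0.29 and 0.88 ± 0.19. Fggy, a kinase of pentoses, fell by 0.91 ± 0.29, a call lost without aged WT replicate 3 or 4 or young WT replicate B or E.

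NADPH links the pentose phosphate pathway to other enzymes. Of 18 producers and users tested, 3 rose (16.7%) and 9 fell (50%) with age, beside 14.3% and 19.0% of all genes, with a median log2 fold change of -0.43, beside -0.02. In the labelled Trem1-/- libraries 7 were higher (38.9%) and 3 lower (16.7%) than in aged WT, beside 11.5% and 6.82%, with a median of 0.51, beside 0.02. Aldh1l2, the mitochondrial folate enzyme that yields NADPH, had 14.3, 8.81 and 28.7 normalized counts in libraries labelled aged Trem1-/-, 211, 93.8 and 174 in aged WT and 3.49, 3.08, 1.201 and 1.16 in young WT. The 3 groups did not overlap, and young WT values came from 4, 5, 1 and 1 reads. It rose by 5.64 ± 0.45 with age (adjusted p = 9.96e-05), a fitted value that rests on the pseudocount at such low counts, and was lower in the labelled Trem1-/- libraries than in aged WT (log2 fold change -3.21 ± 0.48, adjusted p = 0.00252). Idh2 and Aldh1l1 fell by 1.27 ± 0.19 and 1.22 ± 0.29 with age. Gsr, glutathione reductase, and Idh1 were higher by 1.16 ± 0.25 and 1.04 ± 0.23 in the labelled Trem1-/- libraries than in aged WT, the second call being lost without aged WT replicate 6.

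Of 23 HIF-1 and hypoxia-response genes tested, 4 rose and 4 fell with age (17.4% each, near the 14.3% and 19.0% of all genes). In the labelled Trem1-/- libraries 4 were higher (17.4%, beside 11.5%) and 1 lower (4.35%, beside 6.82%) than in aged WT. Ndrg1 had 30.7, 43.3 and 9.18 normalized counts in libraries labelled aged Trem1-/-, 47.4, 56.7 and 47.6 in aged WT and 8.72, 9.85, 12.01 and 6.97 in young WT, and it rose by 2.33 ± 0.42 with age (adjusted p = 0.00177). Vegfa rose by 1.77 ± 0.40 with age, while P4ha2, a collagen prolyl hydroxylase subunit, fell by 1.14 ± 0.22. P4ha1 and P4ha2 were higher by 1.58 ± 0.24 and 1.12 ± 0.24 in the labelled Trem1-/- libraries than in aged WT. Vegfa was lower there (log2 fold change -1.43 ± 0.43), a call lost without any 1 of the 6 aged libraries or young WT replicate C (adjusted p up to 0.123).

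Among 20 regulators of glycolysis tested, 2 rose and 2 fell with age (10% each, below the 14.3% and 19.0% of all genes), and 1 was higher in the labelled Trem1-/- libraries than in aged WT (5%, below the 11.5% of all genes). Mlxipl, the glucose-sensing factor ChREBP, had 659, 445 and 431 normalized counts in libraries labelled aged Trem1-/-, 218, 629 and 307 in aged WT and 863, 929, 725 and 696 in young WT, and it fell by 1.195 ± 0.29 with age (adjusted p = 0.00865). Arrdc4, a known target of that factor, fell by 0.92 ± 0.27 with age (lost without aged WT replicate 3 or 6 or young WT replicate E) and was higher by 1.30 ± 0.29 in the labelled Trem1-/- libraries than in aged WT (lost without Trem1-/- replicate 2). Foxo1 rose by 0.86 ± 0.12 with age (adjusted p = 0.00047). In the labelled Trem1-/- libraries against young WT, Foxo1 (0.69 ± 0.12) and Aldh1l2 (2.43 ± 0.45) were the genes of all these lists that were called, and each call was lost without at least 1 library (adjusted p up to 0.115 and 0.14).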

How the data were processed

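RNA was extracted with a Qiagen column kit and made into libraries with stranded Takara and NEBNext Ultra kits, per the labels' protocols. The submitters' processing notes name DESeq2 1.20.0, featureCounts 1.5.0-p3, STAR and fastp, and the build GRCm38. Which annotation, parameters and strand setting were used is not given in the sources used here.

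The authors deposited 1 table of normalized counts per library (signal, that is counts divided by 1 factor per library) and their mean. In every library 100% of values were whole multiples of 1 number (tolerance 1e-06), so whole reads were recovered for count tests. For aged against young wild type the authors also deposited log2 fold changes with errors, a score (Wald statistic) and a raw and an adjusted p-value per gene.

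Differences were tested in R 4.3.3 by limma-trend, version 3.58.1, on log2(normalized count + 1), with all 10 libraries in 1 model and no batch term. Genes with a mean of at least 10 entered, and p-values were adjusted over all of them by Benjamini-Hochberg at 0.05. The added 1 makes fold changes of low genes too small. Shares of isoenzymes used counts per kb of merged exon (GENCODE M21, GRCm38) and exact two-sided permutation tests. Alternatives were pseudocounts of 0.5 and 5, no filter, a minimum mean of 50, TMM, CPM, edgeR 4.0.16 and DESeq2 1.42.0 on recovered reads, only the groups compared, and leaving out each library. Replicates of a group were further apart than counting noise gives (chi-square from 4.88 to 24.4 per degree of freedom) and all were kept as separate. The level of 3 reads covers counting error only, as reads were not tagged by molecule.

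All 38 members are named. Of each other list, up to 3 called genes with the largest absolute log2 fold change per comparison are named. Members and lists were chosen with earlier results of these data known. Aldoa has more than 1 GENCODE entry, and its row of that name was used. In GENCODE M21 Pgm2 is the chromosome 5 gene. The chromosome 4 gene Pgm1 has also been named Pgm2, so which of them the authors' row counts depends on their annotation. The markers of the sample's other possible cells were low for neutrophils (sums up to 66.6 normalized counts) and eosinophils (up to 24.5, with Prg2 at 0 in every library), and mast cell, dendritic cell and muscle sums were 241 to 2211, 151 to 357 and 5.74 to 156. Erythroid sums were 17.2 to 58.5, 476 to 23863 and 9.30 to 760.2, and mesothelial and fibroblast sums 22.5 to 523, 662 to 729.5 and 12.3 to 524, in libraries labelled aged Trem1-/-, aged and young wild type.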

Additional observations from a re-analysis of the deposited data

Results flagged for a closer look

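In young WT replicate E, 3 of the 38 members stood apart from the other 3 young WT libraries by a gap test (Dixon, 95% level). Ldha had 1526 normalized counts there, G6pdx had 648.51 and Dera had 61.597, each the highest of its group. Chance alone flags about 1 group in 20, and with 38 members looked at a few flags can arise by chance. All 3 flags fall on the same library, and values of 1 library are not independent of each other. Groups of 3 libraries were not examined this way. Without young WT replicate E the call of Ldha with age was lost, while that of G6pdx held.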

How the results depend on the processing

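No member's called change reversed its direction under any alternative run. Counts of called members moved by over 1.5 times as follows. Between aged and young WT, 1 pentose phosphate gene was called higher without the filter, in place of 2. Between libraries labelled aged Trem1-/- and aged WT, the fit of only those groups called 2 glycolysis genes higher in place of 7, 2 lower in place of 1, and 0 pentose phosphate genes lower in place of 1 (that of Prps2). A pseudocount of 5, edgeR and DESeq2 each called 2 glycolysis genes lower in place of 1, the added gene being Aldoc. Between libraries labelled aged Trem1-/- and young WT, glycolysis genes called higher numbered 2 without the filter, 2 with DESeq2 and 1 with only those groups, in place of 0, DESeq2 called 1 pentose phosphate gene lower in place of 0, and edgeR called 1 gene of the other lists higher in place of 2. The cause was not tested. Fits of only those groups had fewer samples, and whether that moved the counts was not tested either.

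Leaving out each library in turn gave these ranges. With age, glycolysis genes called higher and lower numbered 1 to 3 and 6 to 11, pentose phosphate genes higher and lower 1 to 2 and 4 to 5. For libraries labelled aged Trem1-/- against aged WT, the glycolysis counts were 3 to 11 higher and 0 to 2 lower, the pentose phosphate counts 1 to 5 higher and 0 to 1 lower, and the other lists 13 to 27 higher and 2 to 4 lower (19 and 5 with all libraries). Against young WT, glycolysis, pentose phosphate and other genes called higher numbered 0 to 1, 0 to 1 and 0 to 3. No paired analysis was possible because the groups compared share fewer than 2 replicate numbers. Eno2 rests on 37 reads and Aldoc on 117 over all 10 libraries, which limits both. Leaving out aged WT replicate 3 moved called log2 fold changes by over 1.5 times for Ldha (-0.43) and Rpia (-0.26) with age and for Hk3 (0.56) between libraries labelled aged Trem1-/- and aged WT. Without young WT replicate A, Pfkm was called between aged and young WT (adjusted p = 0.0311). Between libraries labelled aged Trem1-/- and aged WT, Aldoc was called without young WT replicate E (adjusted p = 0.0192) and Rpia without aged WT replicate 4 (adjusted p = 0.0492).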
